A study of Mus musculus with 4 samples.

Results

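The genes described here are 9 transcription factors of cartilage and tendon, *Sox5*, *Sox6*, *Sox9*, *Nkx3-2*, *Foxa2*, *Mef2c*, *Scx*, *Mkx* and *Egr1*, together with *Pth1r*, a cell surface receptor that acts in the same lineage. They were taken by symbol, and each of the 10 matched a single row among the 32285 genes of the count matrices. The study followed heterotopic ossification, the formation of cartilage and bone inside muscle, by single-cell RNA sequencing of tibial muscle from C57BL/6 mice aged 6 to 8 weeks. All 4 libraries came from *Nse-Bmp4* mice, in which the neuron-specific enolase promoter drives bone morphogenetic protein 4, so the uninjured library carries the transgene too, and wild-type muscle was not analysed here. One library was from uninjured muscle, and the others were from muscle taken at 1, at 3 or at 7 days after injury (dpi) with cardiotoxin, a snake venom toxin that kills muscle fibres. For each library 3 muscles were digested with collagenase and mixed, so a time point is a single library, library and time cannot be told apart, and no test between time points was possible.

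Cartilage forms when mesenchymal cells condense and switch on SOX9, a factor that binds the enhancers of collagen II and aggrecan, while SOX5 and SOX6, which lack an activation domain of their own, act beside SOX9 at the same genes. NKX3-2 holds chondrocytes in an early state, whereas MEF2C and the FOXA factors promote hypertrophy, the enlargement of chondrocytes that make collagen X before bone replaces them. PTH1R receives parathyroid hormone-related protein, which delays hypertrophy in the growth plate. In tendon, SCX (scleraxis) marks progenitors, MKX (mohawk) promotes collagen fibre formation, and EGR1 is an immediate early factor that also acts in tendon repair. Progenitors that carry both SOX9 and SCX give rise to the junction of tendon and cartilage in the embryo.

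The matrices hold unique molecular identifiers (UMIs), that is, counted RNA molecules. The total per library was between 91146335 and 129007669 UMIs, the median per cell was 8629 in the uninjured library and 3083 at 7 dpi, and between 9641 and 20301 cells per library were kept. Each cell was placed in the class whose list of 8 marker genes it detected best, and none of the 10 genes served in a list. Every class except the dendritic one had at least 7 of its 8 markers in at least 20% of its cells in each library, and the dendritic class had 4 to 7. Cells of the chondrocyte class came only from 7 dpi, where 2659 cells passed, and the mesenchymal class held 8472, 3927, 6744 and 13569 cells in the uninjured, 1 dpi, 3 dpi and 7 dpi libraries. A level is given in CPM, counts scaled to 1e+06 UMIs, in which the summed UMIs of a gene in a class are scaled to the total of that class. A gene was past 2-fold when its CPM differed at least 2-fold either way with at least 20 UMIs on the higher side. Intervals are exact at 95% and cover counting error only, not the spread between mice. UMIs counted as *Bmp4* were at 108, 54.9, 43.2 and 17.1 CPM over all kept cells in the order of time. Whether transcripts of the transgene are among them was not tested, so these values are not a total of both sources. Any 2 libraries had from 30 to 95 cell barcodes in common.

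The genes lie apart in the genome (GRCm38, GENCODE M21). *Sox5* (ENSMUSG00000041540) spans chr6:143828425-144781977 on the minus strand, *Sox6* (ENSMUSG00000051910) chr7:115470872-116038796 on the minus strand, and *Sox9* (ENSMUSG00000000567) chr11:112782224-112787760 on the plus strand. *Nkx3-2* (ENSMUSG00000049691) is at chr5:41761483-41764501, *Foxa2* (ENSMUSG00000037025) at chr2:148042877-148046969 and *Pth1r* (ENSMUSG00000032492) at chr9:110722085-110747145, all on the minus strand. *Mef2c* (ENSMUSG00000005583) lies at chr13:83504034-83667080 and *Scx* (ENSMUSG00000034161) at chr15:76457452-76459458, both on the plus strand. *Scx* overlaps *Bop1*, and *Pth1r* overlaps *Myl3*, each on the opposite strand, and *Sox5* and *Sox6* overlap antisense genes as well, while *Sox5it* and, for *Mkx*, *AC148004.2* lie on the same strand. The sources used here do not state whether counting used strand, so reads of these 5 members and of their neighbours may not have been told apart.

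Promoter windows of 300 bases, from 250 before to 50 after a gene start, were taken from RefSeq (GRCm38.p6). They covered 6 of the 10 genes, *Sox5*, *Sox6*, *Nkx3-2*, *Foxa2*, *Mef2c* and *Pth1r*, with 17 windows in all. Windows of 1 chromosome, the one that holds *Mkx* and *Egr1*, were left out of the search and of the promoters counted for comparison. On both strands a search was made for the SOX core ACAAT. The same was done for the FOX core, spelled TGTTTAC, and for the MEF2 core, spelled CTAAAAATA. The EGR core, spelled GCGTGGGCG, and the TATA box, spelled TATAAA, completed the search. The SOX core was found in 6 of 17 windows, and 31.0% of 32851 promoters of this length hold it. The MEF2 core was found in 1 of 17 windows, that of *Pth1r*, and 0.517% of all promoters hold it. The TATA box was found in 5 of 17 windows against 13.6% of all promoters, and neither the FOX core (3.65% of all promoters) nor the EGR core (0.612%) was in any of them. A match is a description of letters in a window and not evidence of binding. The 4 windows below belong to genes whose level was higher in chondrocytes at 7 dpi, with matches to the SOX or MEF2 core on either strand in capitals. *Foxa2* was higher too but is not printed, and none of its windows held either core. For each gene the window of lowest coordinate is printed. For the genes on the minus strand it lies inside the gene and not at its upstream end. No match of any motif overlapped another.
Pth1r, chr9:110742561-110742860, minus strand: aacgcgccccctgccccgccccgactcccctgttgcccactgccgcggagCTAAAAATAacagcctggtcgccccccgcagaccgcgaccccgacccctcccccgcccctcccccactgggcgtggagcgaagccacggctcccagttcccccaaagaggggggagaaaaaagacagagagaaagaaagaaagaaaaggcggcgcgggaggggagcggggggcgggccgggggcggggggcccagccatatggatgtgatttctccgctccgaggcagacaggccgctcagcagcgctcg
Sox6, chr7:115801560-115801859, minus strand: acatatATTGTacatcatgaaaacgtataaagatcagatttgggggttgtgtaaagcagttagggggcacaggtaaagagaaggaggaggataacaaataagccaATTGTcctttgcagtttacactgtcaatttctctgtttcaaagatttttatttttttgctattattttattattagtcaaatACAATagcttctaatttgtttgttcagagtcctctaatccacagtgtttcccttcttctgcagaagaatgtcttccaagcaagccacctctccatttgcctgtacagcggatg
Sox5, chr6:143947057-143947356, minus strand: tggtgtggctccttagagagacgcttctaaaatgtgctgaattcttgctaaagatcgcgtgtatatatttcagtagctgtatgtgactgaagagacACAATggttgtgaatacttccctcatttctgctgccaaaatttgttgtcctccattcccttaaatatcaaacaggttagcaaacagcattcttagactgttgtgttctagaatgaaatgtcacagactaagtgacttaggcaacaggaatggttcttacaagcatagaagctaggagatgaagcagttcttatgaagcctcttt
Mef2c, chr13:83503784-83504083, plus strand: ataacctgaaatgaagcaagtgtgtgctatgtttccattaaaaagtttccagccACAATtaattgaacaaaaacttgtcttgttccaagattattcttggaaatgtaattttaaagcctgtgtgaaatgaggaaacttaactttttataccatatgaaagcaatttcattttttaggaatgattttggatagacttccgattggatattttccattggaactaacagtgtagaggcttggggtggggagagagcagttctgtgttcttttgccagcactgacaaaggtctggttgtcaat
The *Pth1r* window holds a single MEF2 core, the *Sox6* window 3 SOX cores, and the *Sox5* and *Mef2c* windows 1 SOX core each. The *Sox6* window shown is 1 of 6 for that gene, those of *Mef2c* and *Pth1r* are each 1 of 3, and *Sox5* has 1. The other windows of *Mef2c* and *Pth1r* held no SOX or MEF2 core. Neither did the *Sox6* window at the upstream end of that gene, chr7:116038695-116038994.

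The time course asks when these factors appear in the cells that form the lesion. It was read from mesenchymal and chondrocyte-gated cells together, so that cells gated as chondrocytes stay in the count. Cells tied between these classes, 1128 at 7 dpi and 0 in every other library, had no class and are left out. The 1662 cells of no class at 7 dpi held *Sox9* at 218 CPM, *Pth1r* at 388 CPM and 22 *Foxa2* UMIs. *Sox9* was already present before injury, at 32.1 CPM (95% interval 30.8 to 33.3) in the uninjured library, 38.0 at 1 dpi, 40.8 at 3 dpi and 162 at 7 dpi. Its ratios over the first steps were 1.19 and 1.07, and the step past 2-fold came between 3 and 7 dpi, at 3.98-fold (interval 3.81 to 4.16). *Sox6*, in contrast, was near absent until 3 dpi, at 0.818, 1.45 and 1.33 CPM, and stood at 25.5 CPM at 7 dpi, 19.1-fold higher (15.3 to 24.3). *Sox5*, its partner in cartilage, was not past 2-fold in any step, at 20.98 CPM uninjured, 28.3 at 1 dpi, 16.4 at 3 dpi and 19.4 at 7 dpi.

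*Mef2c* and *Pth1r* followed the late pattern. *Mef2c* was at 26.6, 26.5 and 20.9 CPM in the first 3 libraries and at 142 CPM at 7 dpi, a 6.82-fold difference (6.43 to 7.23). *Pth1r* dipped at 1 dpi, with 19.6 CPM uninjured, 8.82 at 1 dpi, 19.3 at 3 dpi and 210.5 at 7 dpi. Both steps before that were past 2-fold, at 2.22-fold lower (1.97 to 2.52) from uninjured to 1 dpi and 2.19-fold higher (1.93 to 2.49) from 1 to 3 dpi. The second of them fell just short, at a log2 ratio of 0.99, when cells with high doublet scores were kept. From 3 to 7 dpi *Pth1r* was 10.9-fold higher (10.3 to 11.6).

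*Foxa2* and *Nkx3-2* were rare. *Foxa2* had 1, 1 and 0 UMIs in the first 3 libraries and 90 UMIs at 7 dpi. Against a floor of 3 UMIs in the 3 dpi cells this is 21.5-fold higher, a value that leaves out counting error. *Nkx3-2* had 1 UMI in each library, all in mesenchymal or chondrocyte-gated cells, so no comparison of it was possible at this depth.

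The tendon factors moved on their own schedule. *Scx* was at 10.2 CPM (9.48 to 10.9) uninjured, 1.84 (1.42 to 2.34) at 1 dpi, 6.37 (5.74 to 7.05) at 3 dpi and 70.2 at 7 dpi. It was 5.54-fold lower (4.31 to 7.23) at 1 dpi than in uninjured muscle, 3.47-fold higher (2.66 to 4.58) at 3 dpi than at 1 dpi, and 11.02-fold higher (9.93 to 12.3) at 7 dpi than at 3 dpi. *Mkx* was at 0.931, 1.11, 2.62 and 4.16 CPM, and only its step from 1 to 3 dpi, at 2.35-fold (1.65 to 3.42), was past 2-fold. That step fell under 2-fold with every cell weighted equally (a log2 ratio of 0.62) or thinned to 2000 UMIs (0.93). *Egr1* was at 2541 CPM uninjured, 3292 at 1 dpi, 1666 at 3 dpi and 950.3 at 7 dpi. No step of *Egr1* was past 2-fold, the nearest being 1.98-fold lower (1.96 to 1.99) from 1 to 3 dpi, although the step from 3 to 7 dpi, 1.75-fold lower on summed counts, was past it with every cell weighted equally (a log2 ratio of -1.39).

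In counts, 2 of the 8 members with enough UMIs were past 2-fold lower at 1 dpi than in uninjured muscle, where 5.7% of the 14840 genes tested were, and none was higher, where 9.36% were (15.1% either way). From 1 to 3 dpi 3 of 8 were higher, *Scx*, *Mkx* and *Pth1r*, against 8.19% of 14769 genes, and none was lower, against 5.67% (13.9% either way). From 3 to 7 dpi 6 of 9 were higher, *Sox6*, *Sox9*, *Foxa2*, *Mef2c*, *Scx* and *Pth1r*, against 13% of 15892 genes, and none was lower, against 8.32% (21.3% either way). The genes were chosen with earlier results of these data known, so these counts describe the list and do not stand as independent evidence. The median of all genes lay 0.16 above 0 on the log2 scale at 1 dpi against uninjured, and median-of-ratios scaling, which brings it to -0.03, changed no call of the time course. The depth of mesenchymal cells moved with time as well, from a median of 9140.5 UMIs per cell uninjured to 8017, 5593.5 and 3142, and its part in the levels was not tested beyond the thinned values.

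**Figure D1:**
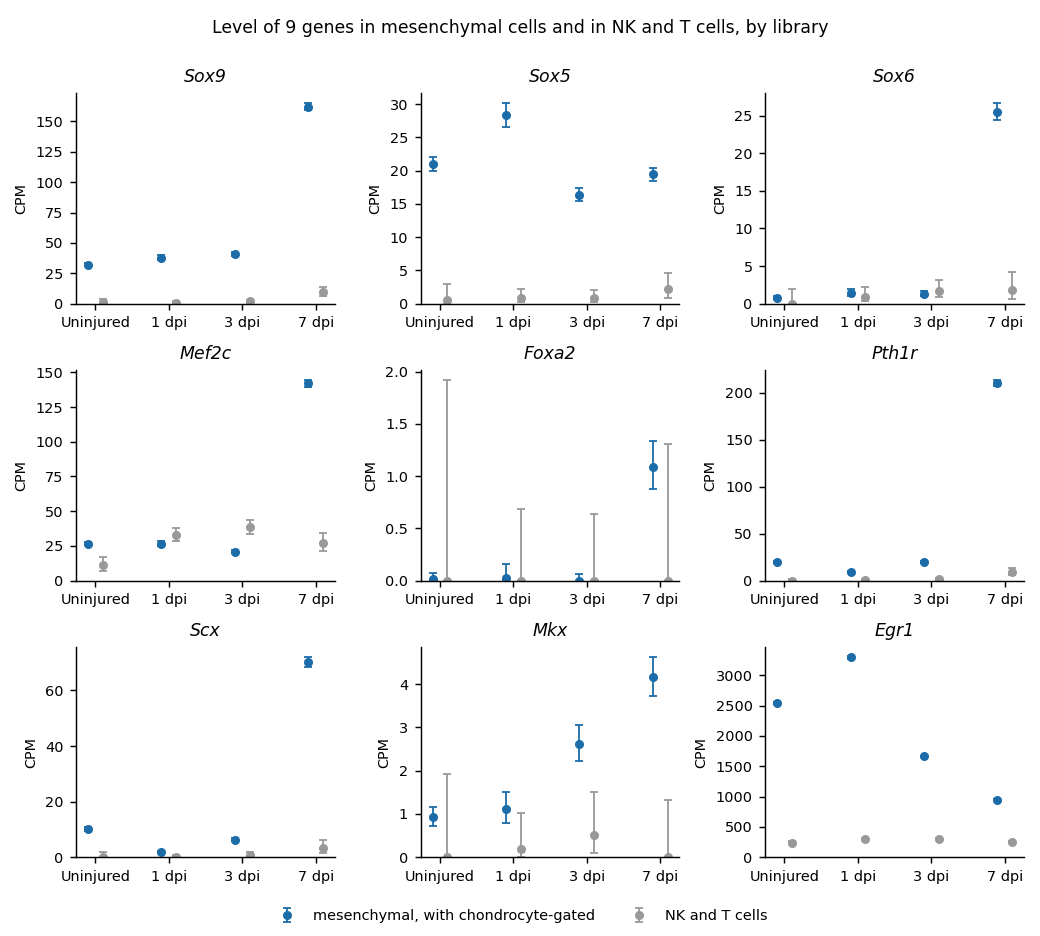
Level of 9 genes, in CPM on a linear axis from 0, in mesenchymal cells with chondrocyte-gated cells (blue) and in NK and T cells (grey) of each library; points are sums over 1 library and bars are exact 95% Poisson intervals. *Sox9*, *Sox6*, *Mef2c*, *Pth1r* and *Scx* stood highest at 7 dpi, *Sox5* and *Egr1* at 1 dpi.

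NK and T cells, which should make no cartilage matrix, were used as a gauge of the level of free RNA in the droplets. At 7 dpi they held *Sox9* at 9.25 CPM (6.04 to 13.5), *Pth1r* at 9.25 (6.04 to 13.5), *Scx* at 3.20 (1.46 to 6.08), *Sox6* at 1.78 (0.577 to 4.15) and no *Foxa2* UMI, which allows up to 1.31 CPM. The intervals of mesenchymal cells at 7 dpi lie above those of NK and T cells for *Sox9*, *Pth1r*, *Scx* and *Sox6*. Some smaller classes held more at 7 dpi, on few UMIs. *Pth1r* was at 38.5 CPM (14.1 to 83.7) in neutrophils and 34.4 (17.2 to 61.6) in endothelial cells. *Sox9* was at 19.2 (3.97 to 56.2) in neutrophils and 17.3 (6.96 to 35.7) in dendritic cells. Monocytes and macrophages held *Pth1r* at 8.37 and *Sox9* at 2.57 CPM. How much of these levels is free RNA was not tested. For *Foxa2* the interval of mesenchymal and chondrocyte-gated cells together, 1.09 CPM (0.876 to 1.34), overlaps that of NK and T cells. Chondrocyte-gated cells alone, at 6.29 CPM (5.01 to 7.80), lie above it. For *Sox6* in the first 3 libraries mesenchymal cells did not lie above NK and T cells, which had 0, 0.924 and 1.73 CPM. The intervals of both classes overlap in each of these libraries. The same overlap held for *Mkx* in the uninjured and 1 dpi libraries. *Mef2c* was higher in NK and T cells than in mesenchymal cells at 1 and 3 dpi. At 1 dpi it was at 32.9 CPM (28.2 to 38.1) against 26.5 (24.8 to 28.2), with the intervals barely apart. At 3 dpi it was at 38.3 (33.5 to 43.7) against 20.9 (19.7 to 22.1). The level from which the *Mef2c* step to 7 dpi is counted therefore lies below that of NK and T cells, which held 27.4 CPM at 7 dpi, and how much of it is free RNA was not tested. Among cells thinned to 2000 UMIs, 61.8% of chondrocyte-gated cells (59.6 to 63.9) and 16.2% of other mesenchymal cells at 7 dpi had a *Pth1r* UMI, against 2.15% of NK and T cells. *Sox9* was found in 44.2%, 19.7% and 0.990% of these same classes, whose median depths before thinning were 3360, 3096 and 2102 UMIs. Without thinning the shares with *Sox9* were 59.7%, 31.7% and 2.19%.

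The second comparison, within the 7 dpi library, asks how chondrocyte-gated cells differ from the other mesenchymal cells around them. *Pth1r* was at 784 CPM (769 to 800) in chondrocyte-gated cells and 101 (99.1 to 104) in the others, 7.73-fold higher (7.498 to 7.97). The SOX trio was higher as a whole, *Sox6* the most in ratio, at 96.3 against 12.1 CPM (7.96-fold, 7.29 to 8.70). *Sox5*, not past 2-fold over time in the whole compartment, was at 49.9 against 13.6 CPM (3.66-fold, 3.31 to 4.05). *Sox9* was at 362 against 124 CPM (2.91-fold, 2.81 to 3.01). The intervals of the *Sox6* and *Pth1r* ratios lie above that of *Sox9*. *Mef2c* was at 409 against 91.5 CPM (4.47-fold, 4.31 to 4.64). *Foxa2* was mostly in the chondrocyte gate, with 83 UMIs against 7 UMIs in 13569 other cells (62.4-fold, 28.99 to 160).

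*Scx* went the other way. It was at 26.2 CPM (23.5 to 29.1) in chondrocyte-gated cells and 78.5 (76.5 to 80.7) in the others, 2.99-fold lower (2.69 to 3.35). *Mkx*, at 4.93 against 4.02 CPM, and *Egr1*, at 874.5 against 964.7 CPM, were not past 2-fold. In all, 6 of the 9 members tested were higher, where 3.79% of 15315 genes were, and 1 was lower, where 9.58% were (13.4% either way). The median of all genes lay at -0.22 on the log2 scale here, and median-of-ratios scaling kept all 7 calls. With cells thinned to 2000 UMIs 6 calls were left, *Foxa2* having too few UMIs. Each of the 6 gaps was smaller than on summed counts. After thinning *Pth1r* was at 660 against 106 CPM, *Sox6* at 86.4 against 13.7 and *Sox5* at 42.5 against 13.7. *Sox9* was at 337 against 125 CPM, *Mef2c* at 359 against 96.0 and *Scx* at 30.4 against 75.1. The ratio intervals above do not cover this dependence on how deep cells are weighted.

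**Figure D2:**
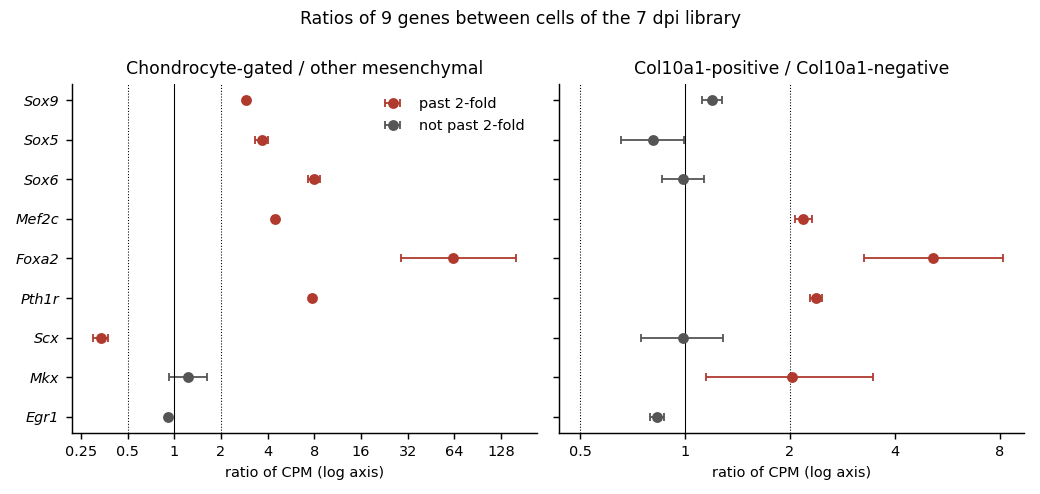
Ratio of CPM for 9 genes within the 7 dpi library, on a log axis, between chondrocyte-gated and other mesenchymal cells (left) and between chondrocyte-gated cells with at least 3 *Col10a1* UMIs and those with fewer (right); bars are 95% intervals of the ratio, dotted lines mark 2-fold. *Scx* alone lies past 2-fold on the left side of 1 in the left panel.

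*Col10a1*, the collagen of hypertrophic cartilage, divided the chondrocyte-gated cells into 493 with at least 3 UMIs and 2166 with fewer. *Pth1r* was at 1457 CPM (1412 to 1504) in the *Col10a1*-positive cells and 614 (599 to 629) in the negative ones, 2.37-fold higher (2.28 to 2.47). *Mef2c* was at 721 against 330 CPM (2.18-fold, 2.06 to 2.31), and *Foxa2* at 17.6 against 3.42 CPM (5.16-fold, 3.27 to 8.20). The SOX trio did not follow, with *Sox9* at 416 against 348 CPM, *Sox6* at 95.3 against 96.5 and *Sox5* at 42.0 against 51.9. *Mkx*, with 22 UMIs against 43, was at a ratio of 2.02 (1.15 to 3.46), and *Scx* at 25.9 against 26.3 CPM. Thus 4 of the 9 members tested were past 2-fold higher, where 1.94% of 11967 genes were, and none was lower, where 3.36% were (5.3% either way).

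The calls of *Mef2c* and *Mkx* rest near the limit. *Mef2c* was under 2-fold with cells thinned to 2000 UMIs (a log2 ratio of 0.95), and *Mkx* fell to a log2 ratio of 0.56 with the stricter gate of 4 markers. Thinning left only *Pth1r* among the 4 calls, since *Foxa2* and *Mkx* then had too few UMIs.

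Binned by *Col10a1*, the chondrocyte-gated cells showed a graded pattern. *Pth1r* stood at 573 CPM in the 1833 cells with no *Col10a1* UMI, 847 in the 333 cells with 1 to 2, 1029 in the 245 cells with 3 to 9, 1431 in the 164 cells with 10 to 29 and 2149 in the 84 cells with 30 or more. *Mef2c* went in the same order from 310.0 through 445, 548 and 642 to 1082 CPM. *Egr1* ran downward, from 917 through 840.0, 788 and 749 to 698 CPM. *Foxa2* was at 2.68 CPM in the first bin and 33.9 in the last. *Sox9* spanned only 347 to 466 CPM over the bins. Cells with more *Col10a1* were also deeper, with median depths between 3162 and 5745 UMIs, and the part of depth in these levels was not tested.

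A second gradient used the number of the 8 cartilage matrix markers a cell detected, from none to all, over mesenchymal, chondrocyte-gated and tied cells of 7 dpi. The tied cells, 1128 of the 1662 that no class took, had equal numbers of mesenchymal and chondrocyte markers, and their inclusion was decided after the data had been seen. *Sox9* was at 81.8 CPM with 0 markers, 142 with 3, 200.5 with 5 and 363 with 8, with each bin above the one before it. *Sox6* was at 5.00, 13.2, 31.7 and 95.0 CPM in the same 4 bins. *Sox5*, in contrast, stayed between 11.4 and 11.9 CPM up to 3 markers and reached 24.1 with 5 and 55.0 with 8. *Mef2c* ran from 61.7 to 415 CPM and *Pth1r* from 52.2 to 778.

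*Scx* had its peak in the middle of this gradient. Its level was 46.8 CPM with 0 markers, 64.8 with 1, 91.6 with 2 and 101 with 3, and then 94.1, 82.9, 72.8, 45.9 and 26.6 CPM with 4 to 8. The intervals of the bins with 3 and 8 markers lie far apart, while those with 2, 3 and 4 overlap. The 9 bins held between 880 and 3968 cells with median depths between 1948 and 4843 UMIs, and since a deeper cell detects more markers, depth and position in the gradient are linked.

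**Figure D3:**
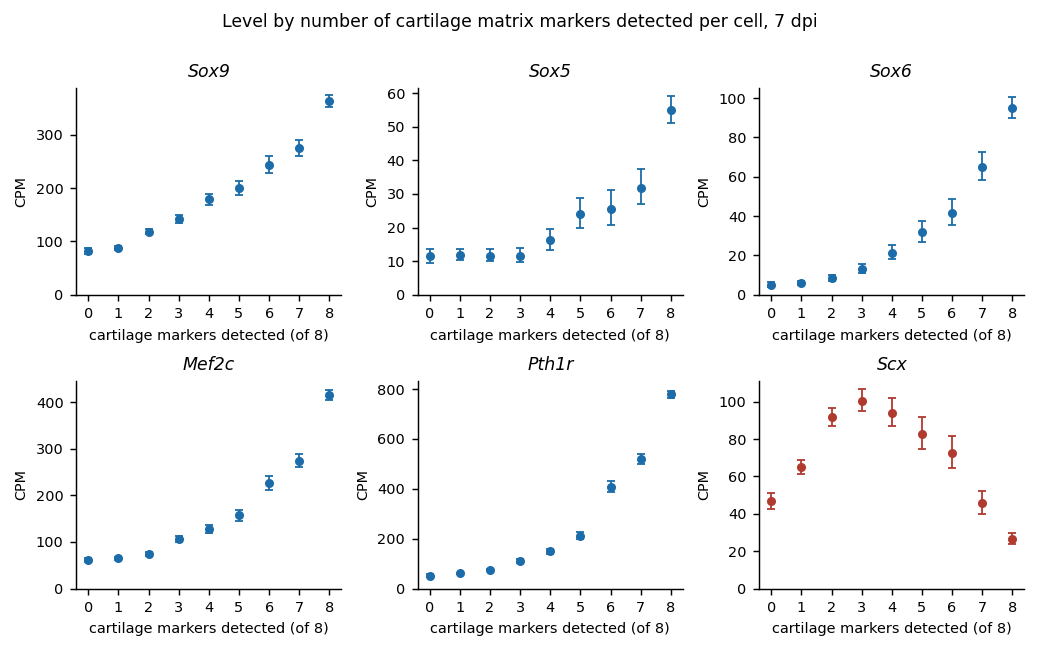
Level at 7 dpi, in CPM on linear axes from 0, of 6 genes in cells binned by how many of 8 cartilage matrix markers they detected; points are sums over the cells of a bin and bars exact 95% Poisson intervals. The 5 genes in blue were highest with all 8 markers, and *Scx* (red) was highest with 3.

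The third comparison concerns cells with at least 1 UMI of *Tnmd* (tenomodulin), a gene of tendon cells, within the mesenchymal class. Before injury these cells held 769 of the 808 *Scx* UMIs and 61 of the 74 *Mkx* UMIs of the class. In the uninjured library *Scx* was at 160 CPM in the 422 *Tnmd*-positive cells and 0.522 CPM in the 8050 without a *Tnmd* UMI, 307-fold higher (222 to 435). Of the *Scx* UMIs, 755 came from 152 cells with both *Tnmd* and *Thbs4*, where the level was 466 CPM (433 to 500). *Mkx* was at 12.7 against 0.174 CPM, 73.0-fold higher (39.7 to 145), and at 33.9 CPM in the cells with both *Tnmd* and *Thbs4*. NK and T cells of this library had no UMI of either gene, which allows up to 1.92 CPM. Both *Tnmd*-negative levels lie under this limit, and how much of them is free RNA was not tested. The 270 *Tnmd*-positive cells without *Thbs4* held *Scx* at 4.40 and *Mkx* at 1.89 CPM. A *Tnmd* UMI alone therefore did not mark cells high in these factors.

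The ratio was smaller in the later libraries. For *Scx* it was 148 (81.8 to 283) at 1 dpi, 12.9 (10.4 to 15.9) at 3 dpi and 2.59 (2.45 to 2.73) at 7 dpi, and the intervals of the last 3 libraries do not overlap, while those of the first pair do. *Tnmd*-positive cells held *Scx* at 160, 63.1, 53.7 and 146.5 CPM in the order of time. *Tnmd*-negative cells went from 0.522 and 0.427 to 4.17 and 56.7 CPM. At 7 dpi the negative cells lay above the 3.20 CPM of NK and T cells. The like values of the positive cells in the uninjured and 7 dpi libraries hold different subsets. Cells with *Tnmd* and *Thbs4* were at 466 CPM (433 to 500) uninjured and 167 (160 to 174) at 7 dpi, and cells with *Tnmd* alone were at 4.40 (2.41 to 7.38) and 84.3 (75.7 to 93.6). The numbers of cells in these subsets were 152 and 270 in uninjured muscle and 1999 and 816 at 7 dpi.

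*Mkx* behaved differently in the *Tnmd*-positive cells, at 12.7, 38.4, 39.99 and 8.63 CPM. In the negative ones it rose, as *Scx* did, from 0.174 and 0.256 CPM to 0.884 and 2.53 CPM. Its ratio was 73.0 uninjured, 150 (69.6 to 358) at 1 dpi, 45.2 (32.01 to 64.7) at 3 dpi and 3.41 (2.68 to 4.34) at 7 dpi. Before 7 dpi the *Mkx* intervals of negative cells overlapped those of NK and T cells, so the earlier ratios have the same limit as for *Scx*. *Scx* and *Mkx* were the only members past 2-fold in each of the 4 libraries, 2 of 8 tested each time, where 2.56%, 1.6%, 1.25% and 0.633% of genes were higher and 4.12%, 3.8%, 3.06% and 2.86% were lower. Either way, 6.68%, 5.4%, 4.31% and 3.5% of genes were past 2-fold in these libraries. *Sox9* was lower in the *Tnmd*-positive cells of uninjured muscle, at 16.9 against 33.0 CPM and short of 2-fold, and level at 7 dpi, at 127.5 against 123 CPM. *Sox6*, with 12, 7 and 13 UMIs in the *Tnmd*-positive cells of the first 3 libraries, had ratios of 3.52 (1.71 to 6.67), 6.76 (2.57 to 15.1) and 4.24 (2.15 to 7.77), but its positive side was under the 20 UMIs that a call needs.

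At 7 dpi 1.28% of NK and T cells had a *Tnmd* UMI, against 20.7% of mesenchymal cells. How many *Tnmd*-positive cells owe a single UMI to free RNA was not tested. The median depth of *Tnmd*-negative cells was 9076 UMIs in uninjured muscle and 2888 at 7 dpi, that of positive cells 10728.5 and 4041. How many cells that make *Tnmd* fell on the negative side for lack of depth was not tested either. With at least 2 *Tnmd* UMIs required, the log2 ratio at 7 dpi was 1.66 for *Scx* (1.37 with 1) and 2.18 for *Mkx* (1.77 with 1).

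**Figure D4:**
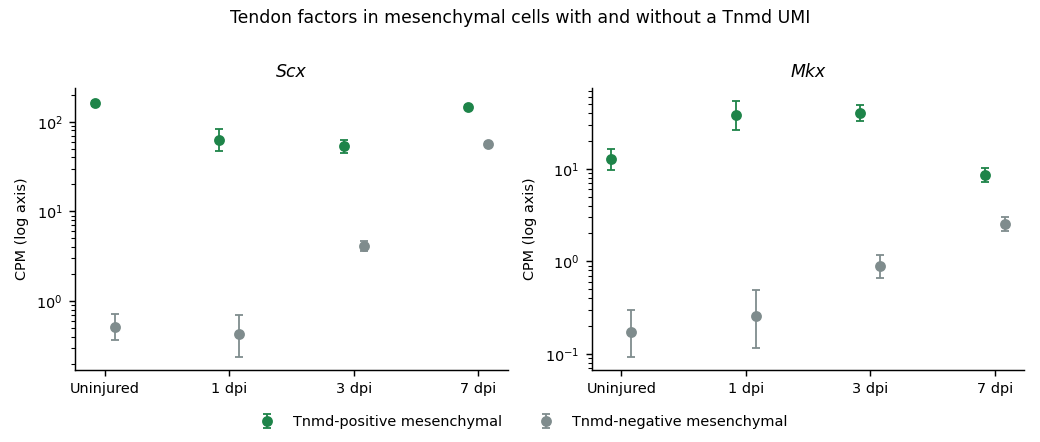
*Scx* (left) and *Mkx* (right) in mesenchymal cells with at least 1 *Tnmd* UMI (green) and without (grey), in CPM on log axes, by library; points are sums over 1 library and bars exact 95% Poisson intervals. The *Scx* gap narrowed from 307-fold in uninjured muscle to 2.59-fold at 7 dpi. The median depth of the cells without *Tnmd* fell from 9076 to 2888 UMIs between these libraries. In uninjured muscle the *Scx* interval of the cells without *Tnmd* overlaps that of NK and T cells.

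Among subsets of the mesenchymal class at 7 dpi, *Scx* was at 167 CPM in cells with *Tnmd* and *Thbs4*, 108 in cells with *Lrrc15* and *Tnn*, 84.3 in cells with *Tnmd* alone and 47.5 in the remaining cells, with no overlap between the intervals of neighbours in this order. *Sox9* at 7 dpi was at 416 CPM in *Col10a1*-positive and 348 in *Col10a1*-negative chondrocyte-gated cells. Next came cells with *Tnmd* alone at 143 (132 to 155) and cells with *Lrrc15* and *Tnn* at 141 (135 to 148). The remaining mesenchymal cells held 138 (134 to 143), and the intervals of these last classes overlap. Cells with *Tnmd* and *Thbs4* held 122 (116 to 129) and *Pi16*-positive cells 69.1 (64.5 to 74.0). Before injury the order was another one, with *Sox9* at 55.7 CPM in the remaining mesenchymal cells, 21.4 in cells with *Tnmd* alone, 19.9 in *Pi16*-positive cells and 8.02 in cells with *Tnmd* and *Thbs4*. Among the mesenchymal subsets at 7 dpi *Pth1r* was at 124 CPM (119.8 to 128.4) in the remaining cells and 114 (104 to 125) in cells with *Tnmd* alone, whose intervals overlap.

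Detection of *Sox9* and *Scx* in the same cell was examined because embryonic progenitors of the tendon and cartilage junction carry both. After thinning to 2000 UMIs, 1 of 8422 mesenchymal cells was positive for both in uninjured muscle, 2 of 3740 at 1 dpi and 5 of 5724 at 3 dpi. The single shares in these libraries were 5.62%, 7.11% and 7.355% for *Sox9* and 0.701%, 0.401% and 1.10% for *Scx*, each below its share at 7 dpi. At 7 dpi, with chondrocyte-gated cells included, 271 of 11400 were positive for both. The last share was 2.38% (2.11 to 2.67), and the product of the single shares, 24.1% and 10.4%, is 2.50%. The share of cells with *Scx* was 9.87% (8.78 to 11.04) among *Sox9*-positive cells and 10.5% (9.89 to 11.2) among *Sox9*-negative cells, so the intervals overlap. Taken apart, 225 of 9363 mesenchymal cells at 7 dpi held both, 2.40% (2.10 to 2.73) against a product of 2.25%, and 46 of 2037 chondrocyte-gated cells did, 2.26% (1.66 to 3.00) against a product of 2.50%.

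Other pairs at 7 dpi departed from their products. *Mef2c* and *Pth1r* were found together in 9.08% of cells against a product of 5.01%, a ratio of 1.81. *Sox5* and *Sox6* were together in 42 cells, at 2.11 times the product, *Sox9* and *Sox6* in 233 cells at 1.74 times, and *Sox9* and *Pth1r* in 982 cells at 1.47 times. *Scx* was under the product with *Pth1r*, at 0.785 times it, and with *Mef2c*, at 0.757 times. *Scx* and *Mkx* shared 9 cells in uninjured muscle, 91.8 times the product, and 16 cells at 7 dpi, 1.79 times the product. Within the classes the departures were smaller for most pairs. *Mef2c* with *Pth1r* was at 1.65 times the product in mesenchymal and 1.15 in chondrocyte-gated cells, *Sox9* with *Pth1r* at 1.33 and 1.05, and *Scx* with *Pth1r* at 0.971 and 0.817.

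*Egr1* belongs to the immediate early genes, which dissociation of tissue can switch on within the digestion itself. A list of 10 others, *Fos*, *Fosb*, *Jun*, *Junb*, *Ier2*, *Atf3*, *Dusp1*, *Nr4a1*, *Btg2* and *Zfp36*, was followed beside it in mesenchymal cells. At 1 dpi against uninjured, with *Egr1* 1.30-fold higher, *Nr4a1* was past 2-fold higher and *Fos* and *Atf3* lower, where 9.36% and 5.7% of all genes were. The median log2 ratio of the list was -0.50. From 1 to 3 dpi the median was -0.83 with *Nr4a1* past 2-fold lower, where 5.67% of all genes were, and *Egr1* was at a log2 ratio of -0.98. From 3 to 7 dpi none of the 10 was past 2-fold, where 21.3% of all genes were either way. The median of the list was -0.14, and *Egr1* was at -0.81. The share of the digestion in the *Egr1* level was not tested.

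Outside the mesenchymal cells the same genes appeared in other places. *Egr1* in *Myog*-negative muscle cells, which include satellite cells, was at 4284 CPM (4132 to 4440) uninjured, 11655 (11321 to 11997) at 1 dpi, 2243 at 3 dpi and 3214 at 7 dpi. In Schwann cells it was at 3115, 5351, 5542 and 2063 CPM. NK and T cells held 243 to 309 CPM.

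*Mef2c* was not a cartilage gene alone. B cells, in which MEF2C acts downstream of the B cell receptor, held it at 782 (712 to 857), 1124 (1095 to 1155), 638 (585 to 693) and 786 (685 to 898) CPM in the order of time. Their interval at 7 dpi overlaps that of *Col10a1*-positive chondrocyte-gated cells (689 to 754), and both lie above *Col10a1*-negative cells at 330 CPM and mural cells at 317. In uninjured muscle the mural cells, which wrap vessels, held 543 CPM, and endothelial cells held 272 at 1 dpi and 257 at 3 dpi.

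*Sox5* and *Sox6* were also seen in glial and mural cells. Before 7 dpi the highest *Sox6* levels among the gated classes were in these, at 94.1 CPM (75.1 to 117) in mural cells and 56.1 (41.3 to 74.3) in Schwann cells of uninjured muscle, 103 in Schwann cells at 1 dpi and 136 at 3 dpi. *Sox5* was at 75.1 CPM in mural cells of uninjured muscle and 59.8 in Schwann cells at 3 dpi. *Pth1r* was at 45.9 CPM (33.0 to 62.3) in the mural cells of uninjured muscle, an interval that overlaps that of cells with *Tnmd* and *Thbs4*, at 39.5 CPM.

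*Scx* and *Sox9* were both present in muscle cells, most at 3 dpi. In the order of time the whole muscle class held *Sox9* at 46.0, 63.3, 132 and 48.5 CPM. It held *Scx* at 20.2, 5.06, 73.3 and 26.0 CPM. At 3 dpi *Scx* had 122 UMIs in the 67 *Myog*-positive cells, differentiating myoblasts, a level of 115 CPM (95.9 to 138). It was at 38.4 CPM (28.4 to 50.8) in *Myog*-negative cells. *Sox9* was at 133 CPM (111 to 156) and 131 CPM (112 to 152) in these same cells. The mesenchymal class of that library held *Scx* at 6.37 and *Sox9* at 40.8 CPM, and NK and T cells held 0.691 and 1.90 CPM. After thinning to 2000 UMIs 10.8% of the *Myog*-positive cells (4.44 to 20.9) had an *Scx* UMI, against 58.2% before thinning, 1.10% of mesenchymal cells and 0% of NK and T cells (up to 0.289%), at median depths of 14686, 5593.5 and 2721 UMIs. In *Myog*-negative cells the thinned share was 3.33% (0.916 to 8.31), which overlaps that of mesenchymal cells (0.847 to 1.41). Thinned *Scx* levels were 61.5 and 16.7 CPM in *Myog*-positive and negative cells. *Pth1r*, with 1 UMI in the *Myog*-positive cells, did not share this. *Mkx* had 0 UMIs there, which allows up to 3.49 CPM. Mesenchymal cells held *Mkx* at 2.62 CPM, so whether the *Myog*-positive cells differ from them cannot be read. With 67 cells of 1 library, these values have no replicate.

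**Figure D5:**
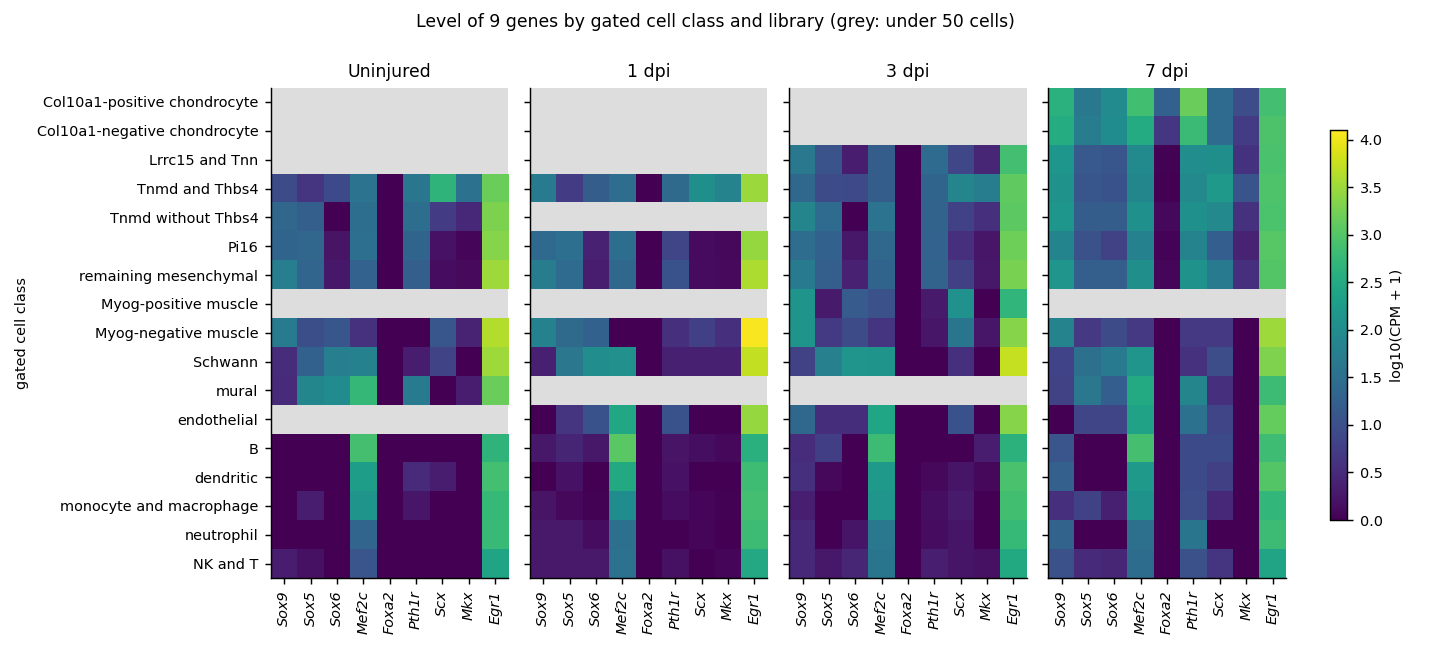
Level of 9 genes as log10(CPM + 1), shown by colour, in 17 gated cell classes (rows) of the 4 libraries; grey marks classes with under 50 cells. *Mef2c* was between 638 and 1124 CPM in B cells, *Egr1* at 11655 CPM in *Myog*-negative muscle at 1 dpi, and *Scx* at 466 CPM in cells with *Tnmd* and *Thbs4* of uninjured muscle.

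Paralogs of these genes, from a list of 14, were followed beside them. *Foxa3*, like *Foxa2*, was higher in chondrocyte-gated cells, with 208 UMIs in chondrocyte-gated cells and 16 in other mesenchymal cells at 7 dpi, 68.4-fold higher in CPM, and 29.3 against 12.3 CPM in *Col10a1*-positive against negative cells. *Foxa1* had 0 UMIs in mesenchymal and chondrocyte-gated cells of every library. *Sox8*, a relative of *Sox9*, was at 10.9 against 2.63 CPM between the same 2 classes (4.14-fold). *Mef2a* and *Mef2d* were within 2-fold in every step of time and in both chondrocyte comparisons. *Pthlh*, which encodes the ligand of PTH1R, was at 35.5, 14.2, 6.45 and 10.5 CPM over time, lower at 1 dpi as its receptor was, and past 2-fold in the other direction from it between 1 and 3 dpi. At 7 dpi it was at 4.17 CPM in chondrocyte-gated and 11.7 in other mesenchymal cells. In all, 3 of the 11 paralogs with enough UMIs were past 2-fold higher from 3 to 7 dpi, where 13% of all genes were. In chondrocyte-gated cells 2 of 11 were higher, where 3.79% of genes were, and 1 was lower, where 9.58% were.

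Cartilage matrix genes, a list of 13 of which 8 define the chondrocyte gate, were past 2-fold higher from 3 to 7 dpi in 13 of 13 cases, where 13% of all genes were. The median log2 ratio of this list was 9.33, beside a median of 2.77 for the 9 members tested and -0.07 for all genes. Of 11 hypertrophy genes 10 were higher in that step, where 13% of all genes were. Between *Col10a1*-positive and negative cells 4 were higher, *Ihh*, *Ibsp*, *Alpl* and *Col10a1* itself, where 1.94% of all genes were. At 1 dpi against uninjured 5 of the 8 hypertrophy genes tested were past 2-fold higher, *Mmp13*, *Spp1*, *Ibsp*, *Runx3* and *Sp7*, where 9.36% of all genes were. At 1 dpi *Spp1* in mesenchymal cells, at 26.1 CPM, overlapped NK and T cells at 29.4, and *Runx3*, at 1.20 CPM, lay below their 207, so that the part of other cells' RNA in these values was not tested. Of 10 tendon genes, 7 were higher in *Tnmd*-positive cells in each of the first 3 libraries and 6 at 7 dpi, *Tnmd* being the gate. In the order of time 2.56%, 1.6%, 1.25% and 0.633% of all genes were higher. In chondrocyte-gated cells 6 of the 10 tendon genes were lower, as *Scx* was, where 9.58% of all genes were. The 3 that were higher, where 3.79% of all genes were, are *Fmod*, *Chad* and *Col11a1*, which cartilage also makes.

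The genes most like each member were found over 61 profiles, each a class of 1 library with at least 50 cells, among 13238 genes, by Pearson correlation of log2(CPM + 1). The profiles share libraries, and many are classes of 1 lineage, so the values describe likeness only. *Sox9* was most like *Capn6* (0.93), *Peg3* (0.90) and *Lrrc17* (0.89). *Scx* was most like *Ccn4* (0.83), *Bmpr1b* (0.81) and *C1qtnf3* (0.80), and *Mkx* most like *Atp6v0a4* (0.89), *Kera* (0.87) and *Wif1* (0.87). *Pth1r* was most like *Wnt5b* (0.87), *Ndufa4l2* (0.87) and *Aspn* (0.86). *Sox5* had *Cspg4* (0.88), *Fxyd1* (0.88) and *Ttc23* (0.88), of which *Cspg4* is a mural marker, and *Sox6* had *Plxnb1* (0.86) and *Mtss2* (0.86). *Egr1* was most like *Deptor* (0.85), *Ctdsp2* (0.85) and *Gabarapl1* (0.85). The values for *Mef2c* were lower, the nearest genes being *4930523C07Rik* (0.70), *Lrrc8c* (0.67) and *Hdac9* (0.67). *Nkx3-2* and *Foxa2* were below the 500 UMIs required.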

How the data were processed

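Single-cell RNA sequencing libraries were 1 per time point, uninjured and 1, 3 and 7 dpi. The authors aligned reads and counted UMIs with Cell Ranger 5.0.0, and the deposited values are raw UMI counts per gene and cell. The submitters' processing notes name Seurat 3.1.1 and the mm10 build. Down-sampling is mentioned in the study's methods, but not its place relative to the deposited counts.

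Cells were kept within 2 SD of the mean log10 UMIs and genes per library and at most 10% mitochondrial UMIs, and the 7.5% with the highest Scrublet doublet scores were removed (scanpy 1.11.5, Python 3.11.15, scipy 1.17.1). A cell joined the class with most of 8 markers detected, at least 3 and no tie, and immune subclasses needed 2. UMIs were summed per class and library, CPM was given an exact Poisson interval, and ratios a conditional binomial interval. A sum under 3 UMIs was set to a floor of 3 for calls. Shares of cells were computed after thinning each cell to 2000 UMIs, leaving out shallower cells, with Clopper-Pearson intervals. Classes under 50 cells in a library were not compared. With 1 library per group no test was possible and no p-value is given. The calling steps were run on simulated counts that hold counting error only, so spread between cells or mice was not part of that check.

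Members, gene lists and gates were chosen with earlier results of these data known. The named genes were the 10 members, the paralog, immediate early, cartilage, hypertrophy and tendon lists, and the 3 genes most like each member. Of the 32285 gene identifiers, 32235 matched GENCODE M21. One of the genes found by likeness is not reported here.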

Additional observations from a re-analysis of the deposited data

Results flagged for a closer look

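For 2 members the interval of the ratio between *Tnmd*-positive and *Tnmd*-negative mesenchymal cells lay on opposite sides of 1 in different libraries. *Pth1r* was at a ratio of 1.74 (1.47 to 2.06) in uninjured muscle and 2.62 (1.53 to 4.21) at 1 dpi, where the positive cells held 18 UMIs, and at 0.888 (0.839 to 0.939) at 7 dpi. *Mef2c* was at 1.19 in uninjured muscle, with an interval whose lower end is close to 1, and at 0.913 (0.861 to 0.969) at 7 dpi. The difference between libraries was not tested. *Tnmd*-positive cells were 422 of the class in uninjured muscle and 2815 at 7 dpi.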

How the results depend on the processing

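Counts of members past 2-fold in the time course (11 calls) were between 10 and 12 under other doublet, cell and scaling choices and 16 at 1.5-fold, and those of chondrocyte-gated against other mesenchymal cells (7 calls) were 6 or 7. The 4 calls by *Col10a1* became 2 with every cell weighted equally, 1 with cells thinned to 2000 UMIs and 2 when at least 100 UMIs were required. The 8 calls by *Tnmd* became 5 with thinning and 5 with at least 100 UMIs, both of which leave fewer UMIs to call from, and 12 at 1.5-fold or with at least 5 UMIs. Shares of all genes are given only at 2-fold with at least 20 UMIs. The counts at other limits therefore describe the list alone and cannot be set against all genes. The share of cells with both *Sox9* and *Scx* at 7 dpi was 2.38%, and 6.59% when cells were thinned to 4000 UMIs instead, where each cell keeps more UMIs. No result reversed. Of single-gene log2 ratios, 357 stayed within their counting interval and 143 moved beyond it. With 1 library per time point no library could be left out. No paired analysis was possible because each group has 1 library and no result comes from a test. *Nkx3-2*, at 1 UMI per library, was below what this depth can compare.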
